A study of Drosophila melanogaster with 6 samples.

Results

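Transcripts of the cytosolic translation initiation factors were examined in Kc-167 cells, an embryonic Drosophila melanogaster line with features of haemocytes, after RNA interference (RNAi) against Enigma. The genes were taken by name: every probe set that the platform annotation gives to 1 gene, with a symbol that starts with eIF and a digit, with the brightest probe set, by its mean on the 6 arrays, standing for each gene. This gave 37 genes, with 43 probe sets, of 10844 genes on the array. By factor there were 1 gene of eIF2, 5 of eIF2B, 16 of eIF3, 10 of eIF4 and 5 of other factors (eIF1, eIF2A, eIF5, eIF5B and eIF6). The rule itself used no measured difference, but it was set with earlier results of these data known.

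The Enigma RNAi group was 3 arrays from cells treated with 20 µg of double-stranded RNA against Enigma (gene CG9006, current symbol Egm), whose mitochondrial product resembles the acyl-CoA dehydrogenases. The control RNAi group was 3 arrays from cells given the same amount of double-stranded RNA against beta-lactamase, a bacterial gene. Both groups had 1 hour without serum and were harvested 5 days later, and 8 µg of total RNA was labelled with biotin for an Affymetrix array. Replicates were numbered 1 to 3 in each group, and a pair below is the Enigma RNAi and the control array of 1 number. Whether replicates were separate cultures is not stated in the labels, so each p-value reflects only the spread among these arrays, part of which may be technical. All arrays came from 1 cell line, and in bulk RNA fewer cells of a type and less RNA per cell cannot be told apart.

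Initiation factors bring the small ribosomal subunit, the initiator tRNA and the mRNA together. eIF2 carries the initiator tRNA in a complex with GTP, and eIF2B reloads eIF2 with GTP, the step that stress kinases block by phosphorylating eIF2. eIF3 is a large scaffold on the small subunit, and the eIF4 proteins bind the mRNA cap and unwind the leader. eIF1, eIF5 and eIF5B act in start codon selection and subunit joining.

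Values are log2 expression levels from GCRMA, and each difference is Enigma RNAi minus control RNAi, so that 1 unit is a doubling. Probe sets entered the tests if 3 or more of the 6 arrays exceeded a value of 4, a filter on dim signal that kept 6975 of them. The Enigma probe set had 3.24, 3.51 and 4.21 in Enigma RNAi cells, against 6.00, 6.41 and 6.71 in control cells. Its difference was -2.72, with an adjusted p of 0.283 in limma and of 0.000118 in limma with the replicate number as a block. Of 11 haemocyte markers with a probe set, 8 were above the filter, among them Hml and the transcription factor srp, while NimC1, eater and crq were not. Markers of other types above it were lz of crystal cells, Mlc2 of muscle, elav and brp of neurons, and bam and can of the germline. There were 0 of 2 for lamellocytes and 0 of 3 for fat body. Of those above it, lz, can, Mlc2 and elav lay close to the filter, with highest values of 4.21, 4.41, 4.57 and 4.73. The highest values of brp and bam were 5.49 and 6.89. The arrays were of like brightness, with 48.6% to 52.8% of probe sets above 4 in Enigma RNAi cells and 48.3% to 51.1% in control cells.

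Initiation factor transcripts differed little between the groups, and none of the 29 tested genes passed the threshold of an adjusted p under 0.05 in limma over all tested probe sets. In that fit 0.00% of all probe sets passed, and the count at an unadjusted p under 0.05 was 1 of 29 genes, eIF3j, against 4.26% of all probe sets. With the replicate number as a block 0 of 29 passed as well, against 0.631% of all probe sets, and 8 of 29 had an unadjusted p under 0.05, against 19.3%. Of these 8, 7 were among the 13 tested eIF3 genes, 6 lower and 1 higher, and the other was eIF2A. The largest difference in size was -0.41, for eIF3c, which is 1.33-fold, and 21 of the 29 lay under 0.25 in size, against 79.1% of all probe sets. The gap between the 3' and the 5' control probe sets of eIF4A, given in full with that gene, was larger by 0.33 after Enigma RNAi with no overlap of the groups.

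Across the 29 genes the median difference was -0.12, against -0.03 over all tested probe sets. The mean was lower after Enigma RNAi for 20 of 29 genes, against 58.3% of all probe sets. Part of this gap went with brightness. Among all probe sets with a mean log2 of at least 6, the median was -0.06 and 62.7% had a lower mean. The 27 initiation factor genes in that set had a median of -0.14, and 19 of them a lower mean. Lower in all 3 pairs were 11 of 29, against 25.2% of all tested probe sets. Higher in all 3 pairs were 2 of 29, against 15.0%. The medians of the 3 pairs were 0.02, -0.19 and -0.21, so pair 1 stood at about 0. Without pair 1, 2 genes of the 29 passed in limma with the block, eIF3c and eIF3j. In this fit of 4 arrays 8.40% of all probe sets passed. So few arrays leave little of a gene's own spread, and the p-values rest mostly on spread that limma borrows from all probe sets. The median standard error was 0.17, and the 95% confidence intervals of the 29 genes reached down to -0.99 for eIF3c and up to 1.07 for eIF6.

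**Figure D1:**
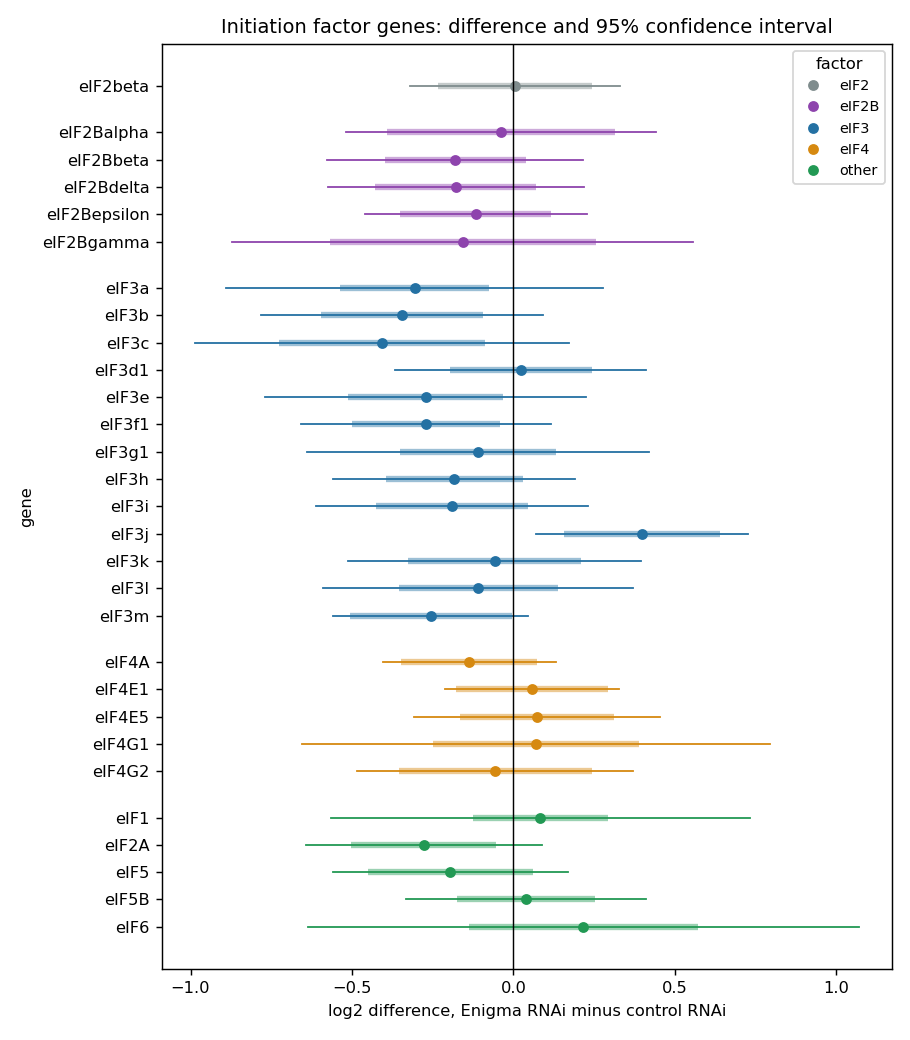
Log2 differences (Enigma RNAi minus control RNAi) for each of the 29 tested initiation factor genes (points), with its 95% confidence interval from limma without a block (thin lines) and with the replicate number as a block (thick pale lines), n = 3 arrays a group. Most eIF3 genes and all 5 eIF2B genes lie left of 0, while eIF3j lies to the right at 0.40.

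eIF3 was the factor with the most genes tested, 13 of 16. Of these 11 had a lower mean after Enigma RNAi, against 58.3% of all probe sets. The eIF3 median difference was -0.19, against -0.03 over all tested probe sets. Among probe sets with a mean log2 of at least 6, which include all 13, the median was -0.06 and 62.7% had a lower mean. Lower in all 3 pairs were 8 of 13, against 25.2% of all probe sets. None passed in limma without or with the block. The eIF3 members stood apart from each other in direction: eIF3j was the one with the largest positive difference of all 29 genes, and eIF3c, eIF3b and eIF3a had the 3 largest negative ones.

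eIF3c, a scaffold subunit of the eIF3 core, had 9.38, 9.19 and 9.69 in Enigma RNAi cells, against 9.39, 9.83 and 10.26 in control cells. The values of pair 1 were nearly equal, while pairs 2 and 3 differed by -0.64 and -0.57, and the groups overlapped. The difference was -0.41, with a standard error of 0.24 without the block and 0.14 with it, and it did not pass in limma (adjusted p = 0.169 with the block). It was -0.19 without control 3 and -0.63 without control 1.

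eIF3b, which holds a WD40 propeller and binds the small subunit, had 9.88, 9.65 and 10.12 in Enigma RNAi cells, against 10.00, 10.17 and 10.51 in control cells. It was lower in all 3 pairs, although Enigma RNAi array 3 lay above control array 1, so the groups overlapped. The difference was -0.35, with a standard error of 0.18 without the block and 0.11 with it (limma with the block, adjusted p = 0.146), and it was -0.20 without control 3.

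eIF3a, the largest core scaffold subunit, had 8.84, 9.29 and 9.37 in Enigma RNAi cells, against 9.01, 9.57 and 9.84 in control cells. Both groups had their lowest value on array 1, and each pair was lower after Enigma RNAi by 0.17, 0.29 and 0.46. The difference of -0.31 had a standard error of 0.24 without the block and 0.10 with it (limma with the block, adjusted p = 0.155). It was -0.13 without control 3 and -0.54 without control 1.

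eIF3j, a loosely bound subunit that in yeast also takes part in recycling ribosomes, had 10.85, 10.78 and 10.76 in Enigma RNAi cells, against 10.62, 10.39 and 10.17 in control cells. All 3 Enigma RNAi values lay above all 3 control values, one of 2 genes of the 29 whose groups did not overlap, against 8.97% of all probe sets. Its difference was 0.40 (standard error 0.14), and the 95% confidence interval ran from 0.07 to 0.73. These come from the fit without the block, and the gene did not pass over all probe sets (limma, adjusted p = 0.999, and 0.101 with the block). The Enigma RNAi arrays were close together (10.80 ± 0.05, SD, n = 3), while the controls spread more (10.40 ± 0.22, SD, n = 3).

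The other gene without overlap was eIF3m, a core subunit of the PCI family, with 10.31, 10.24 and 10.27 in Enigma RNAi cells, against 10.39, 10.46 and 10.75 in control cells. Its difference was -0.26, with a standard error of 0.13 without the block and 0.11 with it (limma with the block, adjusted p = 0.25), and it was -0.15 without control 3. Of the remaining core subunits, eIF3e and eIF3f1 each differed by -0.27, eIF3h by -0.18, eIF3l by -0.11 and eIF3k by -0.06. Without control 3 these differences were -0.11 for eIF3e, -0.15 for eIF3f1, -0.07 for eIF3h, and 0.06 for both eIF3l and eIF3k. In mammals the core of eIF3 is built of subunits with PCI or MPN domains, a division laid over these data with the values known. All 8 tested genes of that core had a lower mean, against 58.3% of all probe sets, with a median of -0.26. All 8 had their highest value on control 3, against 22.5%. Without that array 6 of 8 had a lower mean, against 56.2% of all probe sets, with a median of -0.12. The 3 genes of the module of b, g and i had a lower mean too, against 58.3%, with a median of -0.19. Without control 3 it was 2 of 3, against 56.2%. eIF3i differed by -0.19, or by -0.02 without Enigma RNAi 2, and eIF3g1 by -0.11, or by 0.03 without control 3. eIF3d1, whose mammalian counterpart can bind the cap, differed by 0.02, or by -0.12 without control 1.

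**Figure D2:**
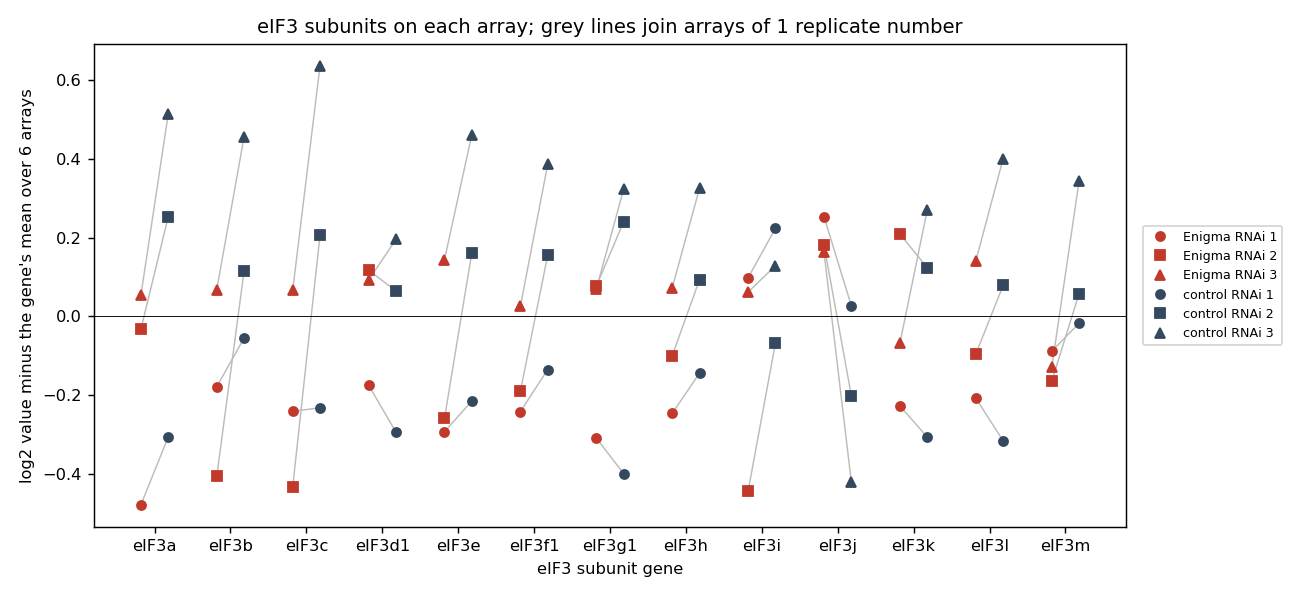
The 13 tested eIF3 subunit genes on each of the 6 arrays, as the log2 value minus the mean of that gene over the 6 arrays. Red symbols are Enigma RNAi, dark symbols control RNAi, shapes are replicate numbers, and grey lines join the arrays of 1 pair. Control 3 is the highest array for 11 of the 13 genes and the lowest for eIF3j.

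The level of the eIF3 genes varied with the replicate number. Relative to each gene's own mean over the 6 arrays, the median over the 13 eIF3 genes was -0.23, -0.10 and 0.07 on Enigma RNAi arrays 1 to 3, against -0.22, 0.12 and 0.34 on control arrays 1 to 3. Array 1 was thus low in both groups by about the same amount, and control 3 was the highest array for 11 of 13 genes, against 22.5% of all probe sets. eIF3i was highest on control 1 and eIF3j on Enigma RNAi 1. Without control 3 the eIF3 median was -0.11 and 8 of 13 genes had a lower mean, against 56.2% of all probe sets. Without control 1 the median was -0.33, with 12 of 13 lower, against 60.8%.

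eIF2B, the exchange factor of eIF2, had all 5 genes tested. All 5 had a lower mean after Enigma RNAi, against 58.3% of all probe sets. Their median was -0.16, with differences from -0.18 to -0.04. Without control 3 that median was -7.5e-05, and 3 of 5 had a lower mean, against 56.2% of all probe sets. None passed in limma without or with the block. eIF2Bepsilon, the catalytic subunit, had 7.14, 6.98 and 7.23 in Enigma RNAi cells, against 7.08, 7.15 and 7.48 in control cells. Its difference was -0.12 with a standard error of 0.14, and the sign depended on 1 array, since it was above 0 without control 3. eIF2Bbeta and eIF2Bdelta, of the regulatory subcomplex, each differed by -0.18, and by -0.05 and -0.02 without control 3. Their partner eIF2Balpha differed by -0.04, or by 0.13 without Enigma RNAi 2, and eIF2Bgamma, which pairs with the catalytic subunit, by -0.16.

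All 5 eIF2B genes had their lowest value on Enigma RNAi array 2, against 26.7% of all probe sets, and 4 of 5 had their highest on control array 3, against 22.5%. For eIF2Bgamma the values were 6.74, 6.41 and 7.37 in Enigma RNAi cells, against 6.52, 7.15 and 7.31 in control cells. Pair 2 differed by -0.74 and the other pairs by 0.21 and 0.06, so the mean difference followed 1 pair. Without Enigma RNAi array 2, 3 of the 5 genes had a lower mean, against 60.1% of all probe sets. The difference of eIF2Bgamma was then 0.06. eIF2beta, the one subunit of eIF2 itself among the genes, had 11.29, 11.37 and 11.61 in Enigma RNAi cells, against 11.26, 11.55 and 11.45 in control cells. It differed by 0.01 with a 95% confidence interval of -0.32 to 0.33.

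**Figure D3:**
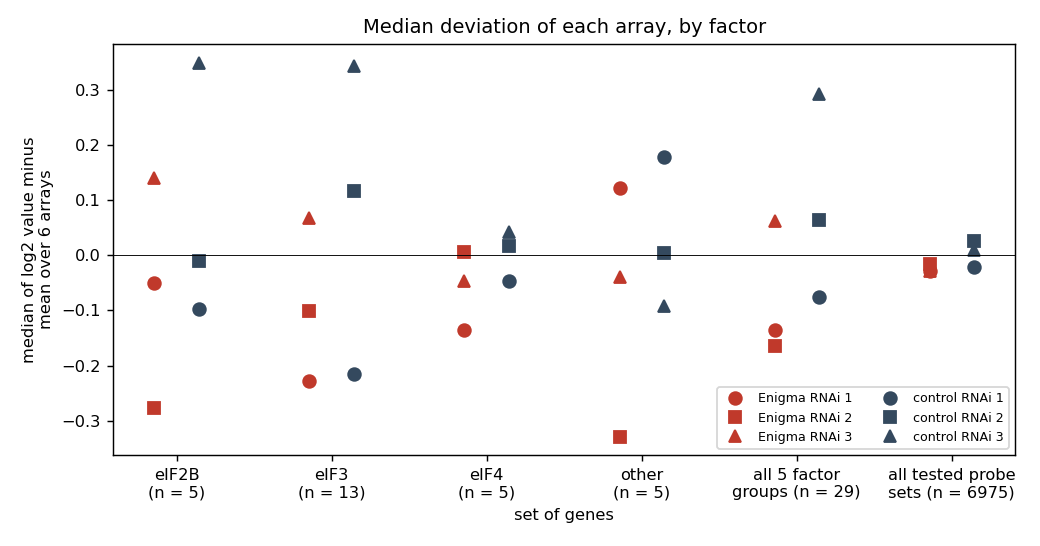
For each factor, the median over its tested genes of the log2 value minus the gene's mean over the 6 arrays, 1 symbol for each array, with Enigma RNAi in red at the left and control RNAi in dark at the right. Control 3 stands highest for eIF2B at 0.35 and for eIF3 at 0.34, and Enigma RNAi 2 stands lowest for eIF2B at -0.28, while the medians of all tested probe sets lie between -0.03 and 0.03.

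The eIF4 group had 5 of 10 genes tested. After Enigma RNAi 3 had a higher and 2 a lower mean, against 41.7% and 58.3% of all probe sets. The median difference was 0.06. With 1 array left out at a time that median lay between -0.08 without Enigma RNAi 2 and 0.02 without Enigma RNAi 3, so it had no settled sign. eIF4E1, the main cap-binding protein, had 9.63, 9.40 and 9.40 in Enigma RNAi cells, against 9.40, 9.36 and 9.49 in control cells. All 6 values lay within 0.26 of each other, and the difference was 0.06, with a 95% confidence interval of -0.21 to 0.33, or -0.02 without Enigma RNAi 1. eIF4G1, the scaffold that joins the cap-binding protein to the helicase, had 8.72, 7.80 and 8.40 in Enigma RNAi cells, against 8.76, 8.02 and 7.94 in control cells. It spread by 0.95 over the arrays, with array 1 the highest in both groups, and its difference of 0.07 was -0.14 without Enigma RNAi 1 and 0.33 without control 1. eIF4G2, a second scaffold gene that in flies is needed in the male germline, was above the filter on all 6 arrays and differed by -0.06, or by 0.13 without Enigma RNAi 1.

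eIF4A, the RNA helicase of the cap complex, had 13.69, 13.83 and 13.75 in Enigma RNAi cells, against 13.76, 14.00 and 13.93 in control cells. It was lower in all 3 pairs, the groups overlapped, and the difference of -0.14 had a standard error of 0.11 without the block and 0.09 with it (limma with the block, adjusted p = 0.468). The array also carries 3 control probe sets along the eIF4A transcript, made to report RNA quality and kept out of the tests. Its 5' end had 11.79, 11.89 and 11.46 in Enigma RNAi cells, against 11.89, 12.15 and 12.02 in control cells, a difference of -0.30 (exact permutation p = 0.2, two-sided).

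The difference was smaller toward the other end of the same transcript. The middle of eIF4A had 12.82, 12.98 and 12.84 in Enigma RNAi cells, against 12.89, 12.98 and 13.02 in control cells, a difference of -0.08 (exact permutation p = 0.2, two-sided). The 3' end had 13.46, 13.40 and 13.42 in Enigma RNAi cells, against 13.37, 13.37 and 13.45 in control cells, a difference of 0.03 (exact permutation p = 0.4, two-sided). Among the 3 control probe sets the difference was thus largest in size at the 5' end. The groups overlapped on all 3, and at the 3' end the pairs ran in both directions.

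The gap between the ends of a transcript, 3' minus 5' on the log2 scale, is a usual sign of RNA quality, and it was larger for eIF4A in each Enigma RNAi array than in any control. It was 1.67, 1.52 and 1.95 in Enigma RNAi cells, against 1.49, 1.22 and 1.43 in control cells, a difference of 0.33 (exact permutation p = 0.1, two-sided). An exact test of 3 against 3 arrays cannot give a p under 0.1, so this is the smallest possible. For the actin control probe sets the gap was 0.69, 0.76 and 1.02 in Enigma RNAi cells, against 0.67, 0.51 and 0.77 in control cells, higher in all 3 pairs by a mean of 0.17 with overlapping groups (exact permutation p = 0.4, two-sided). For GAPDH it was higher in 2 of 3 pairs, with a mean difference of 0.07 (exact permutation p = 0.4, two-sided). The part of RNA quality in the differences of the initiation factor genes was not tested.

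**Figure D4:**
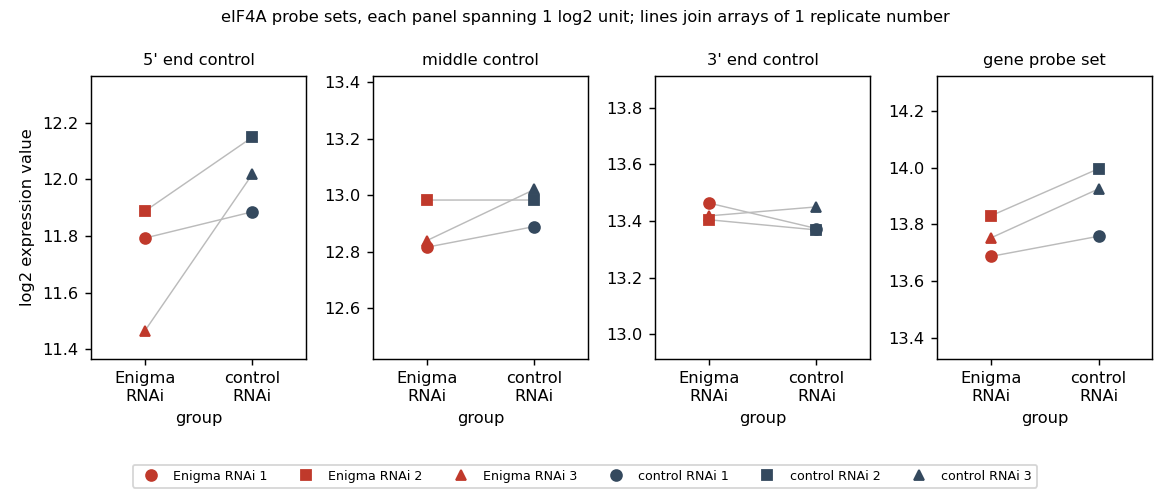
Log2 values of the 3 eIF4A control probe sets (5' end, middle and 3' end) and of the probe set that stands for the eIF4A gene, with Enigma RNAi at the left and control RNAi at the right of each panel. Shapes are replicate numbers, lines join pairs, and each panel spans 1 log2 unit. The 5' end differed by -0.30 and the 3' end by 0.03.

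Of the other factors, eIF2A, an alternative carrier of initiator tRNA, had the largest negative difference. It had 10.86, 10.46 and 10.85 in Enigma RNAi cells, against 11.00, 10.85 and 11.15 in control cells, was lower in all 3 pairs and differed by -0.28, with a standard error of 0.15 without the block and 0.10 with it (limma with the block, adjusted p = 0.179). Enigma RNAi array 2 was the lowest of the 6, and without it the difference was -0.15. eIF5, which triggers GTP hydrolysis by eIF2, differed by -0.20, or by -0.08 without Enigma RNAi 2.

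eIF1, which keeps the scanning ribosome open until a start codon is met, had 12.06, 11.21 and 11.52 in Enigma RNAi cells, against 11.92, 11.16 and 11.46 in control cells. It followed the replicate number closely: array 1 was highest and array 2 lowest in both groups, and the pairs differed by 0.14, 0.05 and 0.05. The mean difference was 0.08 with a standard error of 0.27. It took the other sign, at -0.15, without Enigma RNAi 1.

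eIF6, which keeps the large ribosomal subunit from joining too early, had 8.73, 8.35 and 8.06 in Enigma RNAi cells, against 8.71, 8.41 and 7.37 in control cells. Its spread over the 6 arrays, 1.35, came largely from control 3, and pairs 1 and 2 differed by 0.02 and -0.06. The mean difference of 0.22 was -0.18 without that array. eIF5B, a GTPase of subunit joining, differed by 0.04 on the probe set that stands for it, or by -0.08 without control 3, and by -0.10 and -0.21 on its other 2, so its direction depended on the probe set. For eIF3h, eIF2Bdelta and eIF6 the second probe set was below the filter.

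The filter left out 8 of the 37 genes: eIF3d2, eIF3f2, eIF3g2, eIF4E3, eIF4E4, eIF4E6, eIF4E7 and eIF4H2. All are paralogues of a more widely used factor, and eIF4E3 is known in flies for its role in spermatogenesis. Their values lay between 2.62 and 4.10, and their differences between -0.07 and 0.09. eIF4E5 passed the filter on exactly 3 arrays, with 3.92, 4.40 and 3.97 in Enigma RNAi cells, against 3.89, 4.14 and 4.04 in control cells. The eIF4E7 gene lay just outside it, above 4 on Enigma RNAi array 2 alone. The remaining 28 tested genes were above 4 on all 6 arrays.

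Genes that act on or beside the initiation factors were given by lists chosen for their function, with earlier results of these data known. None of them passed in limma without or with the block. Several listed genes had no probe set given to 1 gene, so the lists do not cover them. These were Thor, AsnS and Xbp1 of the eIF2 list, and cup, pix and RpS6 of the regulators. Of the elongation factors they were eEF1alpha1, eEF1beta and eEF2. Gcn1, Tor and mEFG2 could not be matched to 1 gene and were left out. The list of eIF2 kinases, the eIF2 phosphatase and downstream genes had 8 tested genes. Of these 7 had a higher mean after Enigma RNAi, against 41.7% of all probe sets, with a median of 0.07. Gcn2 and crc were higher in all 3 pairs, as were 15.0% of all probe sets. The other genes of the list had pairs in both directions. crc, the fly ATF4, which is translated when eIF2 is phosphorylated, had 12.76, 12.62 and 12.76 in Enigma RNAi cells, against 12.59, 12.39 and 12.58 in control cells. The groups did not overlap, a property of 8.97% of all probe sets. The difference of 0.19 did not pass (limma with the block, adjusted p = 0.290). The phosphatase subunit gene Pp1-87B differed by 0.17, the eIF2 kinase genes Gcn2 and PEK by 0.11 and -0.09, and PPP1R15, which directs the phosphatase to eIF2, by 0.07.

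Of 14 tested regulators that bind the cap complex or the poly(A) tail, or signal to them, 9 had a lower mean, against 58.3% of all probe sets, with a median of -0.06, against -0.03 over all of them. The kinase S6k differed by -0.26 and the RNA-binding protein gene Larp4B by -0.24. Of 4 tested elongation factors, among them eEF1alpha2 close to the filter, 3 had a lower mean, against the same 58.3%, with a median of -0.06. Their members ran in both directions: eEF5, the hypusinated factor long known as eIF5A, differed by 0.32, and eEF1gamma by -0.27. The eEF1gamma groups did not overlap, with the Enigma RNAi values below the control values (limma with the block, adjusted p = 0.179).

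Termination and recycling factors had a median of 0.12 over 4 genes, with the ribosome rescue factor pelo at 0.17 and the release factor eRF3 at 0.16. Mitochondrial translation factors had a median of -0.12 over 6 genes, 5 of them with a lower mean, against 58.3%. The elongation factor gene mEFTu2 had 6.09, 5.14 and 6.24 in Enigma RNAi cells, against 6.19, 6.15 and 6.54 in control cells. Its difference of -0.47 had a standard error of 0.30 and rested largely on Enigma RNAi array 2, and mEFTs differed by -0.19.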

How the data were processed

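The authors deposited GCRMA values, here read as log2 expression values, made by background correction, normalization between arrays and probe set summary, per the submitters' processing notes that name GCRMA. No label gives the scale. It was taken from the method and from values between -0.32 and 14.30. The array's 44 control probe sets were left out of tests. Gene names came from GEO's platform annotation, which gave 1 gene for 12443 of the other probe sets. The symbols of the 43 initiation factor probe sets equal current RefSeq symbols. Members and lists were chosen with earlier results of these data known.

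Groups were compared by two-sided tests in limma (version 3.58.1, R version 4.3.3; lmFit, eBayes), adjusted by Benjamini-Hochberg over 6975 probe sets. All initiation factor genes may be named. Values by array were given for the 4 largest differences in each direction, for central subunits, and for others chosen after their values were seen. From each related list the 2 largest differences were named, plus Gcn2, PEK and PPP1R15, also chosen afterwards.

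The replicate number was checked for pairing: deviations from group means correlated at r = 0.80, 0.64 and 0.65 for the arrays numbered 1, 2 and 3, across probe sets. The pairing comes from these values and the numbers in the titles. The number of arrays limits the precision. Alternatives were the replicate block, fixed or random, other filters and normalizations, array weights, a floor, averaged probe sets and leaving out arrays.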

Additional observations from a re-analysis of the deposited data

How the results depend on the processing

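The count of 0 initiation factor genes past the threshold was 0 again under 19 of 20 alternatives, including the fit with the replicate block, which changed no call among them. The exception was the replicate block without replicate 1, with 2 genes, eIF3c at -0.61 (limma, adjusted p = 0.00743) and eIF3j at 0.48 (limma, adjusted p = 0.0380). In that fit of 2 pairs 586 of all probe sets passed, or 8.40%, and its p-values rest mostly on spread borrowed from all probe sets. Under 12 of 19 alternatives 0 of all probe sets passed too. There the count of 0 initiation factor genes was bound to follow and says nothing more about them. Over all probe sets the count of 0 became 44 with the replicate block, 3 with replicate as a random block, 2 without replicate 2 and 8 without replicate 3 under the block, and 1 each with quantile normalization or cyclic loess with the replicate block, 2 alternatives chosen after seeing the data. The Enigma difference did not pass in the 11 other fits without a block (limma, adjusted p from 0.0655 to 1.00). It passed in all 7 fits with the replicate block or random block, at -2.72 in both over all arrays, -2.71, -2.63 and -2.83 without replicates 1, 2 and 3, and -2.72 with quantile normalization or cyclic loess.

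Leaving out 1 array at a time gave a median difference of -0.23 to -0.05 over the initiation factor genes, -0.33 to -0.11 for eIF3 and -0.079 to 0.024 for eIF4. The eIF4 median was 0.00021 with a mean log2 of at least 6 and -0.034 with array weights, and -0.021 and -0.089 under the replicate block without replicates 2 and 3, so its sign was not settled. With 3 arrays a group the median standard error over the 29 tested genes was 0.17. Dim signal limits the 8 genes below the filter.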
